A study of Arabidopsis thaliana with 9 samples.

Results

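The 42 genes described here are the nuclear genes of Arabidopsis thaliana for the light-harvesting antenna and for the subunits of photosystem I (PSI) and photosystem II (PSII). They were chosen by locus, as a list of LHCA, LHCB, PSA and PSB genes, out of 33603 loci in the deposited tables. Earlier results of these data were known when the list was chosen, so the choice was not blind to them. The list holds 6 LHCA genes (antenna of PSI), 14 LHCB genes (antenna of PSII), 12 PSA genes (PSI subunits) and 10 PSB genes (PSII subunits). Their mRNA was measured in embryos dissected at the early heart stage from Col FRI, 35S::FCA and Col-0, with 3 libraries per genotype and 20 embryos pooled in each library. The study used these genotypes to ask how FRIGIDA, an activator of the floral repressor FLC, and FCA, a repressor of it, act on FLC in the embryo. Col FRI is the Col background with an active FRI allele, and its parent plants had 6 weeks of cold (vernalization) as seedlings on plates before they went to soil. 35S::FCA is Col-0 with an FCA transgene behind 35S, a constitutive promoter of cauliflower mosaic virus that is not tied to a tissue. Col-0 is the accession from which the transgenic line was made and has no functional FRI. Parents of 35S::FCA and Col-0 were sown straight on soil, so an effect of the FRI allele cannot be told apart from one of parental cold in any comparison with Col FRI. All seeds were cold-stratified before sowing and all plants set seed in the same long-day regime. Replicates were described as biological, but no label says whether they came from separate plantings, so the tests measure the spread between these libraries.

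LHC proteins bind most of the chlorophyll of a leaf and pass absorbed energy to the reaction centers. LHCB1, LHCB2 and LHCB3 form the trimers of LHCII. LHCB4, LHCB5 and LHCB6 are the monomeric antenna proteins CP29, CP26 and CP24 that link the trimers to PSII. LHCA proteins form the belt of PSI. The nuclear PSA and PSB genes encode the peripheral subunits, whereas the reaction center proteins are made from plastid genes. Arabidopsis embryos turn green during mid-embryogenesis, and their chloroplasts lose chlorophyll again as the seed matures.

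LHCB1 is encoded by several near-identical genes, and those of the chromosome 1 cluster differed from one another in the results below. LHCB1.1, LHCB1.2 and LHCB1.3 each have a coding sequence of 804 bases. LHCB1.1 differed from LHCB1.2 at 35 of these positions, LHCB1.1 from LHCB1.3 at 31, and LHCB1.2 from LHCB1.3 at 29. The first 90 coding bases of the 3 genes are given to show how reads can be told apart. No other stretch of 90 coding bases held more differences, and over all 804 bases 47 positions differed. Capitals mark the 9 positions of the stretch where the 3 genes are not all the same (RefSeq, TAIR10.1, 5′ to 3′).
LHCB1.1: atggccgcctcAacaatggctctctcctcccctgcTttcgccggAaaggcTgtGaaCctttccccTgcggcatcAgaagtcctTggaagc
LHCB1.2: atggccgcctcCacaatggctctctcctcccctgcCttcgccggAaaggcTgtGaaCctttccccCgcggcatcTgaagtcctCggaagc
LHCB1.3: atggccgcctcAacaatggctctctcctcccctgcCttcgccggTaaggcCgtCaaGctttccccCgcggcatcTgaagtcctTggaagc
Words of 31 bases were read from RefSeq transcripts, which can differ from the models that were counted. Of these words, 68.8% of LHCB1.1, 74.9% of LHCB1.2 and 61.4% of LHCB1.3 occurred in no other counted locus. The same share was 63.7% for LHCB1.5, 68.8% for LHCB2.1, 60.6% for LHCB2.2 and 60.1% for LHCB2.3. In RefSeq, PSAH1 had 50.1% unique words because its model shares sequence with the neighboring locus AT3G16130, and LHCB2.3 shared words with its neighbor AT3G27700. LHCB2.3 had 2 models in RefSeq but 1 among the models counted. Whether PSAH1 and LHCB2.3 share sequence with these neighbors in the counted models was not tested, so their values may be less certain. Values of the LHCB1 copies, LHCB2.1 and LHCB2.2 are less certain than those of single-copy members, since the estimated counts split shared reads between loci.

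The 250 bases before the annotated start are printed for LHCB1.2 and LHCB1.3, neighbors that took different shares of the LHCB1 mRNA between genotypes, for LHCB2.3, the member with the largest difference between Col FRI and 35S::FCA, and for PSBQ2, the member with the smallest p in 35S::FCA against Col-0. Capitals mark the letters CACGTG (the G-box), GATAAG (the I-box) or CCAATC (a motif of light-regulated antenna promoters), each on either strand (RefSeq, TAIR10.1, 5′ to 3′ toward the gene).
LHCB1.2 (chr1:10473503-10473752, minus strand): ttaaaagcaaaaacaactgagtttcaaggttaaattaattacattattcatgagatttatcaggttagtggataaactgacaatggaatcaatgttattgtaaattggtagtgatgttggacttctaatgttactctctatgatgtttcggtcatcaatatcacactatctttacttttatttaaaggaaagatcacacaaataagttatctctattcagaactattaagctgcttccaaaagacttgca
LHCB1.3 (chr1:10477635-10477884, plus strand): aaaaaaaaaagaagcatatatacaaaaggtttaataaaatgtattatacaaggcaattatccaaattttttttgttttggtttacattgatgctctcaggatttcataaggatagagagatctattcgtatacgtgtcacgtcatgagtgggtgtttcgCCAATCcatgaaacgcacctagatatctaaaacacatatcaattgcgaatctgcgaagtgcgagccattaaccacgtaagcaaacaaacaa
LHCB2.3 (chr3:10255656-10255905, plus strand): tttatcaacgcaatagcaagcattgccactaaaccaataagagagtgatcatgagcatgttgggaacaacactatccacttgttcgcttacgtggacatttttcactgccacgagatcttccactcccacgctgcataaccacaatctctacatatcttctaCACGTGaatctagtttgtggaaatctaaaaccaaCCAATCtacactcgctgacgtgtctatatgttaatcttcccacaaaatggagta
PSBQ2 (chr4:2673244-2673493, minus strand): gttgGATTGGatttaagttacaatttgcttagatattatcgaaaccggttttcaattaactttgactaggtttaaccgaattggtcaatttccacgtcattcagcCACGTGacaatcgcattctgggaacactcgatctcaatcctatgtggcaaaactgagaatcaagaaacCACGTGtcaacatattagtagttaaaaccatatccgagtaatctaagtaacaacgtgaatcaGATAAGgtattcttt
LHCB1.2 held none of these letters, LHCB1.3 held CCAATC, LHCB2.3 held CACGTG and CCAATC, and PSBQ2 held all of them. Among all members, CCAATC occurred upstream of 3 of 6 LHCA and 7 of 14 LHCB genes, against 0 of 12 PSI and 1 of 10 PSII genes, and in 10.2% of the windows of 27443 protein-coding nuclear genes. CACGTG occurred upstream of 8 of 42 members and in 6.49% of all windows, and GATAAG upstream of 9 of 42 members and in 12.3% of all windows. The 3 motifs do not overlap each other in their letters, and a match is a description of the window.

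The libraries held between 15166800 and 25847600 estimated counts. FCA mRNA, the transcript raised by the transgene, was present at 4.06, 4.22 and 4.12 TPM in 35S::FCA, against 2.52, 2.11 and 2.37 TPM in Col-0, in the direction of its label. Replicate 3 of Col-0 stood apart, with 52.0% of its TPM in nuclear genes other than ribosomal and small RNAs, against 65.3% to 70.6% in the other Col-0 and 35S::FCA libraries and 57.7% to 60.3% in Col FRI. For this reason levels are also given as nuclear TPM, rescaled over those nuclear genes alone. The Col FRI libraries differed little from one another, with a median scaled chi-square between pairs of 1.15 to 1.57 over all genes, where 1 is sampling noise. Pairs of 35S::FCA libraries were at 2.88 to 13.4 and pairs of Col-0 libraries at 6.80 to 18.3. Over the members, pairs were between 1.84 and 5.72 in Col FRI, between 7.65 and 77.3 in 35S::FCA and between 30.5 and 137 in Col-0. At the same relative difference this measure grows with a gene's count, and most members had high counts. Relative to their level, members varied less than all genes, with median coefficients of variation of 2.32% in Col FRI, 11.1% in 35S::FCA and 12.1% in Col-0. Over all genes tested these were 6.52%, 16.4% and 18.7%. Genes were not matched for count here, and counting error raises the coefficient of variation of genes with few counts. The Col FRI libraries differed by more than sampling noise and were kept as 3 samples. No label says whether their cDNA came from separate embryo pools. Had they shared a pool, they would stand for 1 sample, and the SE and p-values printed here, which share 1 spread over all genotypes, would be too small. The total of members called in each comparison is therefore also given with the Col FRI libraries added up into 1 sample.

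Photosynthesis genes were abundant in these embryos. LHCB1.3 was the most abundant member at a mean of 1089 TPM over the 9 libraries, followed by PSBR at 688 and PSBX at 687. PSAF, LHCB5, PSBW, LHCB1.5, PSAD1 and PSAH2 followed between 421 and 346 TPM. LHCA6, LHCA5 and LHCB2.3 were the least abundant members among those tested, and LHCB2.3 averaged 5.49 TPM. LHCB1.4 was at or near the limit of detection, with at most 0.163 TPM in any library, and was the 1 member that did not pass the filter on low counts. The other 41 were tested among 18585 genes. The TPM compares levels between genes per transcript length.

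The summed antenna level was highest in Col FRI and lowest in 35S::FCA by mean. The 6 LHCA genes summed to 1035, 1043 and 1060.4 in Col FRI, 517, 719 and 644 in 35S::FCA, and 858, 934 and 645 in Col-0, in TPM. The 14 LHCB genes summed to 3688, 3721 and 3744 in Col FRI, 1934, 2494 and 2328 in 35S::FCA, and 2961, 3399 and 2322 in Col-0. Both sums were higher in every Col FRI library than in any other library, whereas 35S::FCA and Col-0 overlapped through the low replicate 3 of Col-0. For PSI subunits the sums were 3392, 3546 and 3527 in Col FRI, 2419, 2746 and 2656 in 35S::FCA, and 3467, 3359 and 2898 in Col-0. Here Col FRI overlapped Col-0, and all 35S::FCA libraries were below both. PSII subunits summed to 3286, 3440.5 and 3495 in Col FRI, 2293, 2654 and 2545 in 35S::FCA, and 3183, 3071 and 2581 in Col-0, so that Col FRI was above and 35S::FCA overlapped Col-0. In nuclear TPM the genotypes separated for all 4 groups, with all 42 genes together at 19762, 19489.9 and 19771 in Col FRI, 10971, 12502 and 11979 in 35S::FCA, and 14820.2, 15933 and 16257 in Col-0. In these whole-embryo samples, fewer green cells and less RNA per cell cannot be told apart.

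**Figure D1:**
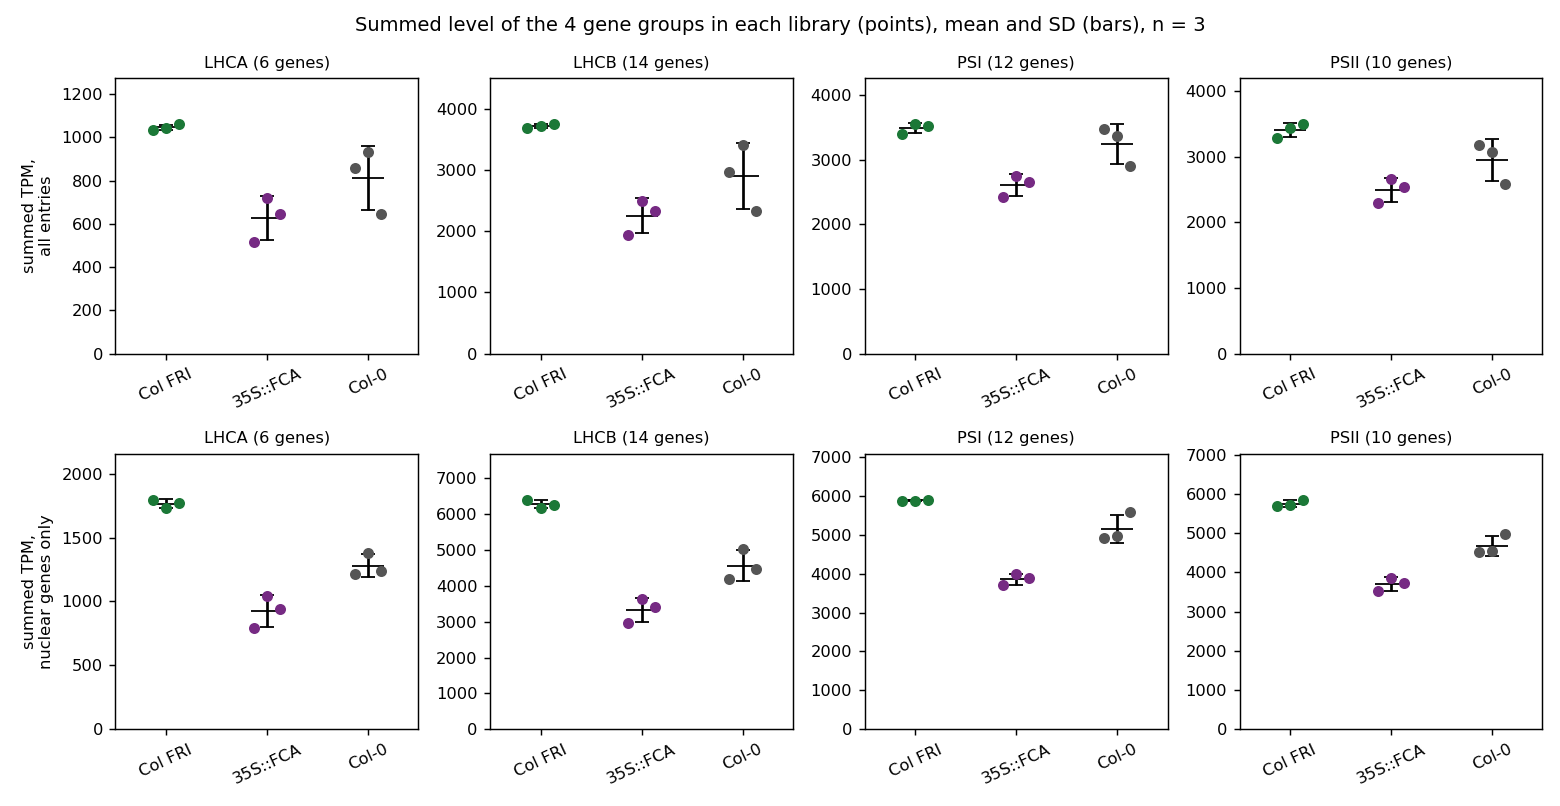
Summed TPM of the LHCA, LHCB, PSI and PSII genes in each library, over all entries (upper row) and over nuclear genes only (lower row), for Col FRI, 35S::FCA and Col-0 from left to right. Points are libraries and bars the mean and SD (n = 3). Over nuclear genes the 3 genotypes do not overlap in any panel, whereas over all entries replicate 3 of Col-0 reaches the 35S::FCA range for LHCA, LHCB and PSII.

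In Col FRI against Col-0, 22 of the 41 members tested were called higher and 0 lower at an edgeR adjusted p under 0.05, where 6.04% of all genes tested were called higher and 7.22% lower. The calls comprised 6 of 6 LHCA, 9 of 13 LHCB, 3 of 12 PSI and 4 of 10 PSII genes. The median log2 fold change was 0.47 for LHCA, 0.50 for LHCB, 0.13 for PSI and 0.27 for PSII genes, against -0.01 over all genes tested. By TPM, 25 members were higher in each Col FRI library than in each Col-0 library (12.4% of all genes), and 34 were by nuclear TPM (20.2% of all genes). None passed the stricter rule of an adjusted p under 0.001 and a change above 2-fold, which 0.0646% of all genes passed in this direction. When the Col FRI libraries were added up into 1 sample, edgeR called 0 members (14 at an unadjusted p under 0.05). Few genes of any kind were called in that fit, where the median log2 fold change was 0.29 over the members and -0.02 over all genes. Without Col FRI replicate 1, 2 or 3 the counts were 9, 9 and 8. Over all genes these fits called 352 of 19148, 300 of 19119 and 303 of 19134 higher. Without replicate 1 of Col-0 the count was 10 (742 of 18869 genes), and without replicate 3 of 35S::FCA it was 14 (681 of 18798 genes). Without replicate 3 of Col-0 it was 24 (1864 of 19022 genes). With 0.1 added, limma on log2 TPM called 5 (176 of 18585 genes).

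In 35S::FCA against Col-0, 0 of 41 members were called higher and 21 lower, where 0.49% of all genes were called higher and 1.03% lower. The calls comprised 4 of 6 LHCA, 5 of 13 LHCB, 6 of 12 PSI and 6 of 10 PSII genes. Medians were -0.44 for LHCA, -0.50 for LHCB, -0.38 for PSI and -0.37 for PSII, against -0.01 over all genes. By TPM, 22 members were lower in each 35S::FCA library than in each Col-0 library (3.29% of all genes), and 34 were by nuclear TPM (9.6% of all genes). None was called lower by the stricter rule, nor was any other gene (0% of all genes). Fitted with these 6 libraries alone, or without replicate 3 of 35S::FCA, or with the Col FRI libraries summed, a single member was called, which was PSBQ2 each time. Over all genes, 6 of 18531 were called lower with these 6 libraries alone and 13 of 18798 without replicate 3 of 35S::FCA. With the Col FRI libraries summed, the median log2 fold change was -0.41 over the members and -0.01 over all genes. Without Col FRI replicate 1, 2 or 3 the counts were 7, 6 and 6 (60, 52 and 60 of all genes). Without replicate 2 of 35S::FCA the count was 8 (64 of all genes), and without replicate 2 of Col-0 it was 9 (129 of all genes). DESeq2 called 32 members (400 of all genes) and limma with 0.1 added called 2 (36 of all genes).

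In Col FRI against 35S::FCA, 38 of 41 members were called higher and 0 lower, where 7% of all genes were called higher and 5.92% lower. The calls were 6 of 6 LHCA, 12 of 13 LHCB, 11 of 12 PSI and 9 of 10 PSII genes. Medians were 0.96 for LHCA, 0.91 for LHCB, 0.57 for PSI and 0.65 for PSII genes, against -0.01 over all genes. LHCB4.3, PSAH2 and PSBX were not called, with log2 fold changes of 0.31, 0.29 and 0.37. By TPM, 40 members were higher in each Col FRI library than in each 35S::FCA library (11.8% of all genes), and 40 were by nuclear TPM (23.7% of all genes). The stricter rule was passed by 7 members (0.366% of all genes): LHCA1, LHCA5, LHCB1.1, LHCB1.5, LHCB2.1, LHCB2.2 and LHCB2.3. When the Col FRI libraries were added up into 1 sample 10 members were called, and limma on log2 TPM called 20. Over all genes, limma with 0.1 added called 359 of 18585 higher. Few genes of any kind were called with the Col FRI libraries summed, where the median log2 fold change was 0.69 over the members and -0.02 over all genes. Before adjustment too, 0 members passed in the direction opposite to the member calls in any of the 3 comparisons, by edgeR, DESeq2 or limma. The 3 comparisons share libraries, so their counts are not independent.

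**Figure D2:**
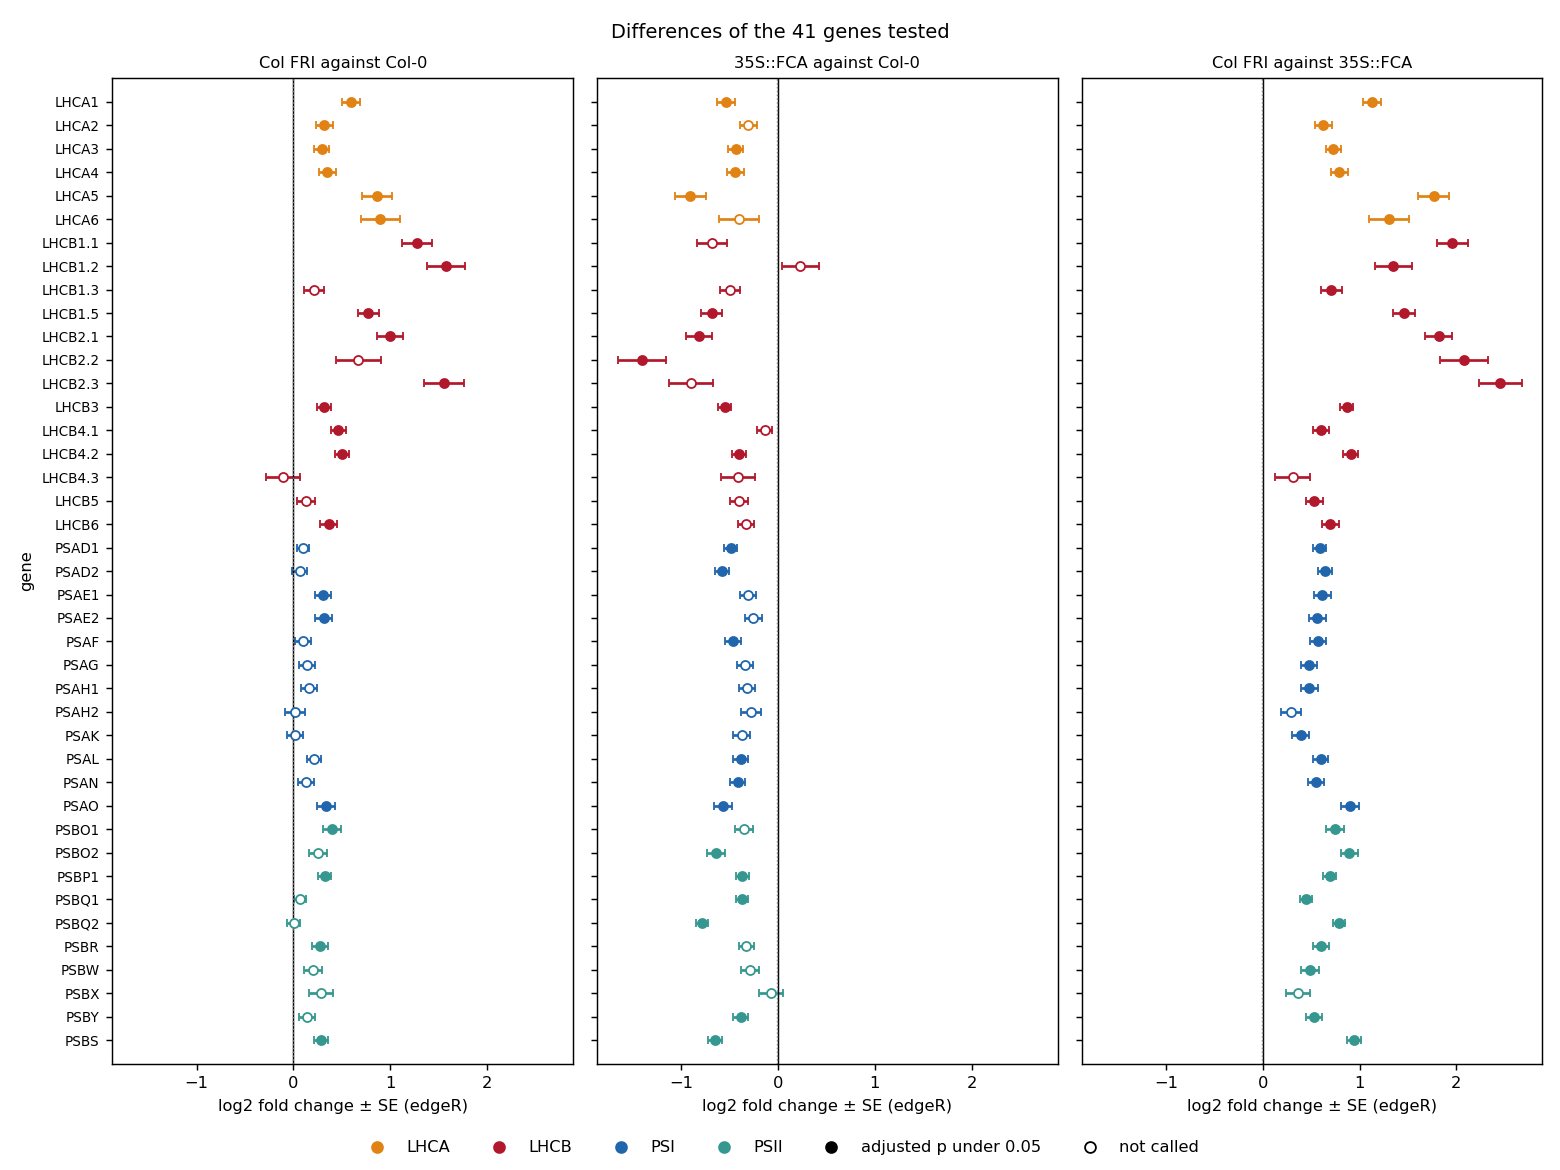
Log2 fold change with its SE (edgeR) of the 41 members tested in Col FRI against Col-0, 35S::FCA against Col-0 and Col FRI against 35S::FCA, on a shared axis. Filled points have an adjusted p under 0.05, colors mark the 4 groups, and the dotted line is the median of all genes tested. LHCB1.2 reaches furthest to the right in the first panel and LHCB2.3 in the third, and LHCB1.2 is the only point above 0 in the middle panel.

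Among the PSI antenna genes, LHCA1 (AT3G54890, chr3:20339504-20341176) encodes a belt protein that pairs with LHCA4. LHCA1 was present at 380.4, 385 and 397 TPM in Col FRI, 168, 215 and 198 TPM in 35S::FCA, and 294, 311 and 200.4 TPM in Col-0. Every Col FRI value was above every other, and replicate 3 of Col-0 lay within the 35S::FCA range. For LHCA1 the log2 fold change was 0.59 ± 0.09 (SE, edgeR adjusted p = 0.0049) in Col FRI against Col-0, -0.54 ± 0.09 (SE, edgeR adjusted p = 0.0275) in 35S::FCA against Col-0 and 1.13 ± 0.09 (SE, edgeR adjusted p = 1.4e-04) in Col FRI against 35S::FCA.
LHCA4 (AT3G47470, chr3:17493343-17495033), the partner that carries the most red-shifted chlorophylls of PSI, was at 291, 294 and 291 TPM in Col FRI, 154, 211 and 191 TPM in 35S::FCA, and 254, 278 and 185 TPM in Col-0. The order of the genotypes was that of LHCA1, with the same overlap of 35S::FCA and Col-0. For LHCA4 the log2 fold change was 0.35 ± 0.09 (SE, edgeR adjusted p = 0.029) in Col FRI against Col-0, -0.44 ± 0.09 (SE, edgeR adjusted p = 0.0419) in 35S::FCA against Col-0 and 0.79 ± 0.09 (SE, edgeR adjusted p = 5.6e-04) in Col FRI against 35S::FCA.
LHCA3 (AT1G61520, chr1:22699715-22701412), which pairs with LHCA2 in the belt, was at 209.7, 207 and 212 TPM in Col FRI, 112, 161 and 144 TPM in 35S::FCA, and 181, 202 and 149.7 TPM in Col-0. The lowest Col FRI value was just above the highest Col-0 value, and 35S::FCA overlapped Col-0. For LHCA3 the log2 fold change was 0.29 ± 0.08 (SE, edgeR adjusted p = 0.0359) in Col FRI against Col-0, -0.44 ± 0.08 (SE, edgeR adjusted p = 0.0292) in 35S::FCA against Col-0 and 0.73 ± 0.08 (SE, edgeR adjusted p = 4.5e-04) in Col FRI against 35S::FCA.
LHCA5 and LHCA6 are minor proteins that join PSI to the chloroplast NDH complex, and are named here after their values were seen. LHCA5 (AT1G45474, chr1:17179250-17180806) was at 7.32, 7.26 and 8.02 TPM in Col FRI, 2.12, 2.83 and 2.32 TPM in 35S::FCA, and 3.75, 5.07 and 4.03 TPM in Col-0. Its 3 genotypes did not overlap. For LHCA5 the log2 fold change was 0.86 ± 0.15 (SE, edgeR adjusted p = 0.0082) in Col FRI against Col-0, -0.91 ± 0.16 (SE, edgeR adjusted p = 0.0292) in 35S::FCA against Col-0 and 1.77 ± 0.16 (SE, edgeR adjusted p = 2.1e-04) in Col FRI against 35S::FCA.
LHCA6 was at 2.84, 3.28 and 3.35 TPM in Col FRI, 0.962, 1.64 and 1.60 TPM in 35S::FCA, and 2.02, 1.97 and 1.28 TPM in Col-0. It was called in both comparisons with Col FRI, and the log2 fold change was 0.90 ± 0.20 (SE, edgeR adjusted p = 0.0191) in Col FRI against Col-0 and 1.31 ± 0.20 (SE, edgeR adjusted p = 0.0032) in Col FRI against 35S::FCA. LHCA2, the remaining belt gene, lay between 143 and 149 TPM in Col FRI, between 79.7 and 127 TPM in 35S::FCA and between 105 and 136 TPM in Col-0.

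The LHCII trimer genes did not all move alike. LHCB1.3 (AT1G29930, chr1:10477885-10479114) made up most of the LHCB1 mRNA, and was at 1270.2, 1269.9 and 1280.4 TPM in Col FRI, 756, 914 and 881 TPM in 35S::FCA, and 1201, 1352 and 878 TPM in Col-0. The Col FRI values lay inside the wide Col-0 range and above all 35S::FCA values. For LHCB1.3 the log2 fold change was 0.21 ± 0.11 (SE, edgeR adjusted p = 0.201) in Col FRI against Col-0, -0.50 ± 0.11 (SE, edgeR adjusted p = 0.0509) in 35S::FCA against Col-0 and 0.71 ± 0.11 (SE, edgeR adjusted p = 0.0026) in Col FRI against 35S::FCA.
LHCB1.1 (AT1G29920, chr1:10474656-10475969), its neighbor, was at 74.3, 77.4 and 76.6 TPM in Col FRI, 22.3, 20.4 and 20.8 TPM in 35S::FCA, and 30.9, 41.9 and 25.1 TPM in Col-0. All 3 genotypes were separate, with Col FRI far above the rest. For LHCB1.1 the log2 fold change was 1.28 ± 0.15 (SE, edgeR adjusted p = 0.0015) in Col FRI against Col-0, -0.68 ± 0.15 (SE, edgeR adjusted p = 0.0594) in 35S::FCA against Col-0 and 1.96 ± 0.16 (SE, edgeR adjusted p = 1.3e-04) in Col FRI against 35S::FCA.
LHCB1.5 (AT2G34420, chr2:14522524-14523568), a copy on chromosome 2, was at 529.8, 541 and 549 TPM in Col FRI, 169, 254 and 226 TPM in 35S::FCA, and 319, 401 and 264 TPM in Col-0. Here too no genotype overlapped another. For LHCB1.5 the log2 fold change was 0.77 ± 0.11 (SE, edgeR adjusted p = 0.003) in Col FRI against Col-0, -0.68 ± 0.11 (SE, edgeR adjusted p = 0.0199) in 35S::FCA against Col-0 and 1.46 ± 0.11 (SE, edgeR adjusted p = 1.0e-04) in Col FRI against 35S::FCA.
LHCB1.2 (AT1G29910, chr1:10472280-10473502) is named after its values were seen. It was at 192, 189 and 193 TPM in Col FRI, 75.7, 86.9 and 82.6 TPM in 35S::FCA, and 58.6, 97.8 and 44.4 TPM in Col-0. The 35S::FCA values fell between those of the Col-0 libraries, unlike those of LHCB1.1 and LHCB1.5. For LHCB1.2 the log2 fold change was 1.58 ± 0.19 (SE, edgeR adjusted p = 0.0017) in Col FRI against Col-0, 0.23 ± 0.19 (SE, edgeR adjusted p = 0.557) in 35S::FCA against Col-0 and 1.35 ± 0.19 (SE, edgeR adjusted p = 0.0022) in Col FRI against 35S::FCA. Without replicate 2 of Col-0, the library with the highest Col-0 value, LHCB1.2 was called higher in 35S::FCA than in Col-0 (edgeR adjusted p = 0.02).

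LHCB2 proteins are the trimer subunits most phosphorylated in state transitions, and LHCB2.3 and LHCB2.2 had the largest log2 fold changes of the members in Col FRI against 35S::FCA. The LHCB2 genes are named after their values were seen. LHCB2.1 (AT2G05100, chr2:1822990-1824480) was at 115, 109.7 and 112 TPM in Col FRI, 37.0, 31.5 and 34.5 TPM in 35S::FCA, and 59.3, 67.8 and 47.8 TPM in Col-0. For LHCB2.1 the log2 fold change was 1.00 ± 0.14 (SE, edgeR adjusted p = 0.0028) in Col FRI against Col-0, -0.82 ± 0.14 (SE, edgeR adjusted p = 0.0237) in 35S::FCA against Col-0 and 1.82 ± 0.14 (SE, edgeR adjusted p = 1.1e-04) in Col FRI against 35S::FCA.
LHCB2.2 (AT2G05070, chr2:1799234-1800472) was at 28.0, 29.7 and 27.8 TPM in Col FRI, 9.14, 6.35 and 6.31 TPM in 35S::FCA, and 14.4, 20.2 and 20.2 TPM in Col-0. For LHCB2.2 the log2 fold change was 0.67 ± 0.23 (SE, edgeR adjusted p = 0.0848) in Col FRI against Col-0, -1.41 ± 0.25 (SE, edgeR adjusted p = 0.0286) in 35S::FCA against Col-0 and 2.08 ± 0.25 (SE, edgeR adjusted p = 7.8e-04) in Col FRI against 35S::FCA. In both genes the 3 genotypes were separate, with Col FRI highest and 35S::FCA lowest.
LHCB2.3 (AT3G27690, chr3:10255906-10257489), whose upstream window with a G-box is printed above, was at 11.0, 10.4 and 10.5 TPM in Col FRI, 2.37, 1.65 and 2.29 TPM in 35S::FCA, and 3.32, 3.75 and 4.06 TPM in Col-0. For LHCB2.3 the log2 fold change was 1.55 ± 0.21 (SE, edgeR adjusted p = 0.0027) in Col FRI against Col-0, -0.90 ± 0.23 (SE, edgeR adjusted p = 0.0777) in 35S::FCA against Col-0 and 2.45 ± 0.22 (SE, edgeR adjusted p = 2.1e-04) in Col FRI against 35S::FCA. These are low levels, with 44 estimated counts in the library that had the fewest.

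**Figure D3:**
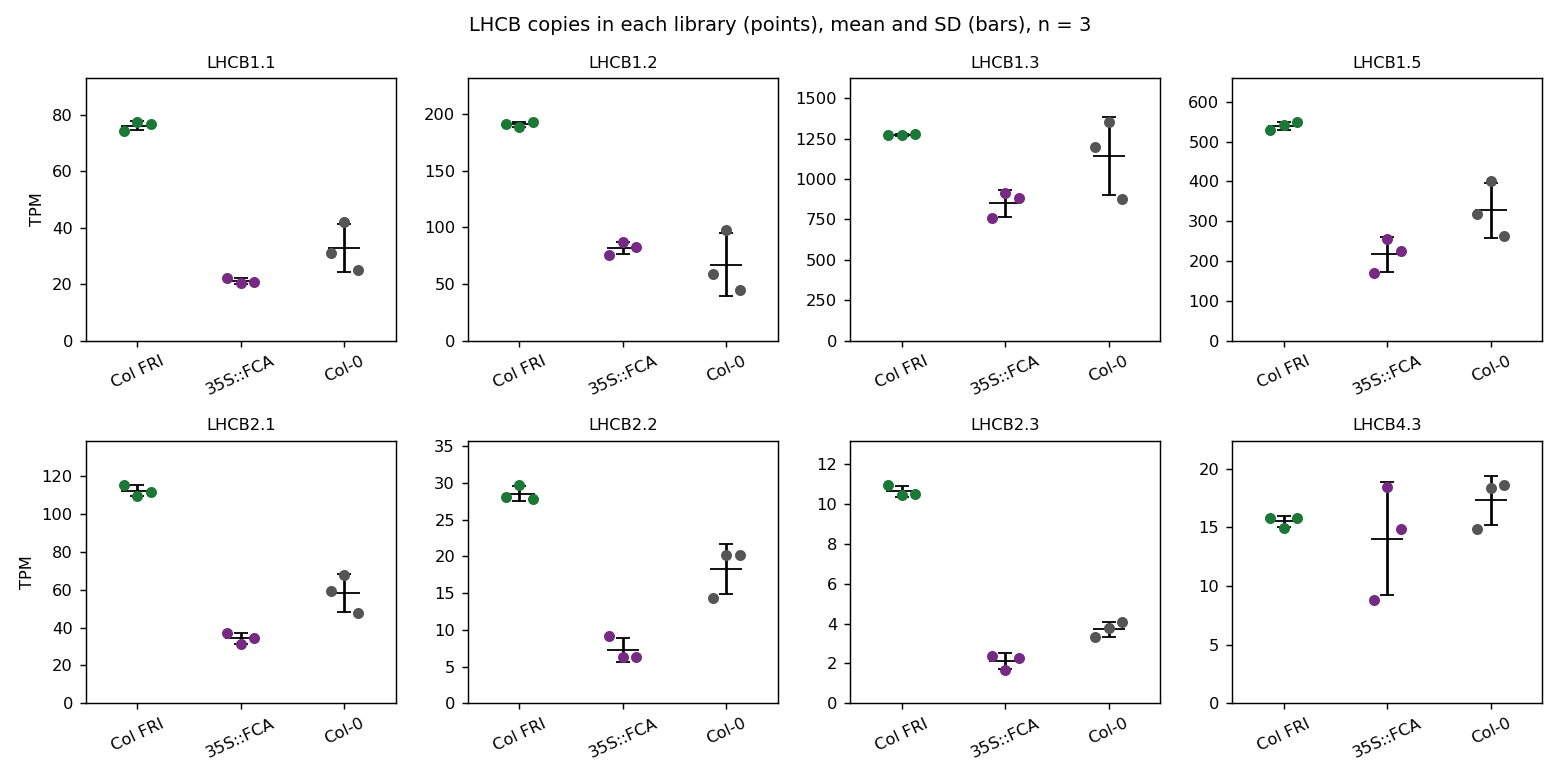
TPM of LHCB1.1, LHCB1.2, LHCB1.3, LHCB1.5, LHCB2.1, LHCB2.2, LHCB2.3 and LHCB4.3 in each library of Col FRI, 35S::FCA and Col-0, from left to right, with a linear axis from 0 in each panel. Points are libraries and bars the mean and SD (n = 3). Col FRI is above all other libraries for every copy shown but LHCB1.3 and LHCB4.3, and LHCB1.2 overlaps between 35S::FCA and Col-0.

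The copies took different shares of a family's mRNA in each genotype. LHCB1.2 made up 9.28, 9.09 and 9.19% in Col FRI, 7.40, 6.81 and 6.82% in 35S::FCA, and 3.64, 5.17 and 3.67% in Col-0 of the LHCB1 TPM. These shares did not overlap between genotypes and do not depend on the scaling of a library. LHCB1.3 made up 61.5, 61.1 and 61.0% in Col FRI, 73.9, 71.7 and 72.8% in 35S::FCA, and 74.6, 71.4 and 72.5% in Col-0, so that its share was lower in Col FRI and overlapped between 35S::FCA and Col-0. The LHCB1.5 share was 25.6, 26.1 and 26.2% in Col FRI, 16.5, 19.9 and 18.7% in 35S::FCA, and 19.8, 21.2 and 21.8% in Col-0, with Col FRI highest. LHCB2 genes made up 4.19, 4.03 and 4.01% in Col FRI, 2.51, 1.58 and 1.85% in 35S::FCA, and 2.60, 2.70 and 3.10% in Col-0 of all LHCB TPM, lowest in 35S::FCA. Because these genes share reads, the near-identical copies were also summed: LHCB1.1 to LHCB1.3 together were at 1536, 1536 and 1549.9 in Col FRI, 854, 1022 and 984 in 35S::FCA, and 1290.3, 1492 and 947 in Col-0 TPM, and LHCB2.1 with LHCB2.2 at 143, 139 and 139.6 in Col FRI, 46.1, 37.8 and 40.8 in 35S::FCA, and 73.7, 88.0 and 68.0 in Col-0 TPM. The summed LHCB1 genes overlapped between 35S::FCA and Col-0, whereas the summed LHCB2 genes separated all 3 genotypes. Of the 38 features left after summing, 20 were called higher in Col FRI against Col-0, 20 lower in 35S::FCA against Col-0 and 35 higher in Col FRI against 35S::FCA. Over all 18582 genes of that fit, 1120, 191 and 1298 were called in these directions.

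LHCB3 (AT5G54270, chr5:22038165-22039568), the trimer subunit found next to CP24, was at 223, 226 and 222 TPM in Col FRI, 119, 147 and 135 TPM in 35S::FCA, and 193, 204 and 161 TPM in Col-0. Its 3 genotypes did not overlap. For LHCB3 the log2 fold change was 0.31 ± 0.07 (SE, edgeR adjusted p = 0.0186) in Col FRI against Col-0, -0.55 ± 0.07 (SE, edgeR adjusted p = 0.0085) in 35S::FCA against Col-0 and 0.87 ± 0.07 (SE, edgeR adjusted p = 1.3e-04) in Col FRI against 35S::FCA.
LHCB5 (AT4G10340, chr4:6408007-6409849), which encodes CP26, was at 444, 442 and 443 TPM in Col FRI, 281, 379 and 348 TPM in 35S::FCA, and 438, 496 and 332 TPM in Col-0. Col FRI lay within the Col-0 range, and the 35S::FCA libraries overlapped its lower end. For LHCB5 the log2 fold change was 0.13 ± 0.09 (SE, edgeR adjusted p = 0.373) in Col FRI against Col-0, -0.40 ± 0.09 (SE, edgeR adjusted p = 0.0599) in 35S::FCA against Col-0 and 0.53 ± 0.09 (SE, edgeR adjusted p = 0.005) in Col FRI against 35S::FCA.
The CP29 genes split. LHCB4.1 had a log2 fold change of 0.46 ± 0.08 (SE, edgeR adjusted p = 0.0063) in Col FRI against Col-0 and -0.14 ± 0.08 (SE, edgeR adjusted p = 0.375) in 35S::FCA against Col-0, and LHCB4.2 of 0.50 ± 0.08 (SE, edgeR adjusted p = 0.0038) and -0.40 ± 0.08 (SE, edgeR adjusted p = 0.0328). LHCB4.3, the diverged CP29 form, was at 15.8, 15.0 and 15.8 TPM in Col FRI, 8.84, 18.5 and 14.8 TPM in 35S::FCA, and 14.9, 18.4 and 18.6 TPM in Col-0. It was not called in any comparison, and its log2 fold change of -0.11 ± 0.18 (SE) in Col FRI against Col-0 was the only negative one among the members. LHCB6, which encodes CP24, had a log2 fold change of 0.36 ± 0.08 (SE, edgeR adjusted p = 0.022) in Col FRI against Col-0 and 0.70 ± 0.09 (SE, edgeR adjusted p = 8.9e-04) in Col FRI against 35S::FCA.

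Among PSI subunits, 3 of 12 genes were called in Col FRI against Col-0 and 6 of 12 in 35S::FCA against Col-0. PSAF (AT1G31330, chr1:11214676-11216141), which helps dock plastocyanin on the lumenal face, was at 455, 481 and 470.2 TPM in Col FRI, 317, 365 and 349 TPM in 35S::FCA, and 470.0, 501 and 385 TPM in Col-0. Col FRI fell inside the Col-0 range and 35S::FCA below it. For PSAF the log2 fold change was 0.10 ± 0.08 (SE, edgeR adjusted p = 0.44) in Col FRI against Col-0, -0.47 ± 0.08 (SE, edgeR adjusted p = 0.0292) in 35S::FCA against Col-0 and 0.57 ± 0.08 (SE, edgeR adjusted p = 0.0024) in Col FRI against 35S::FCA.
PSAD1 (AT4G02770, chr4:1229031-1230164), one of the PSAD genes for the ferredoxin docking subunit, was at 392, 393 and 389 TPM in Col FRI, 249, 311 and 293 TPM in 35S::FCA, and 415, 391 and 329 TPM in Col-0. For PSAD1 the log2 fold change was 0.10 ± 0.07 (SE, edgeR adjusted p = 0.348) in Col FRI against Col-0, -0.49 ± 0.07 (SE, edgeR adjusted p = 0.01) in 35S::FCA against Col-0 and 0.59 ± 0.07 (SE, edgeR adjusted p = 5.8e-04) in Col FRI against 35S::FCA.
PSAD2 (AT1G03130, chr1:753307-754262) was at 81.6, 82.5 and 89.3 TPM in Col FRI, 54.1, 62.4 and 59.9 TPM in 35S::FCA, and 93.8, 83.2 and 73.6 TPM in Col-0. For PSAD2 the log2 fold change was 0.06 ± 0.07 (SE, edgeR adjusted p = 0.6) in Col FRI against Col-0, -0.58 ± 0.07 (SE, edgeR adjusted p = 0.0085) in 35S::FCA against Col-0 and 0.65 ± 0.07 (SE, edgeR adjusted p = 6.2e-04) in Col FRI against 35S::FCA. For both PSAD genes every 35S::FCA library was below every other library.
PSAO (AT1G08380, chr1:2640803-2641934), a subunit at the site where LHCII binds PSI in state transitions, was at 215, 236 and 228 TPM in Col FRI, 127, 135 and 131 TPM in 35S::FCA, and 199, 185 and 169 TPM in Col-0. It was the PSI gene whose genotypes were all separate and called in every comparison. For PSAO the log2 fold change was 0.34 ± 0.09 (SE, edgeR adjusted p = 0.0356) in Col FRI against Col-0, -0.57 ± 0.09 (SE, edgeR adjusted p = 0.0199) in 35S::FCA against Col-0 and 0.90 ± 0.09 (SE, edgeR adjusted p = 3.5e-04) in Col FRI against 35S::FCA.
PSAH2 (AT1G52230, chr1:19454798-19455668), part of the same LHCII binding site, was at 356, 353 and 366 TPM in Col FRI, 316, 310.4 and 320.1 TPM in 35S::FCA, and 393, 378 and 324 TPM in Col-0. Its 35S::FCA values were below all others by TPM, but no comparison was called. For PSAH2 the log2 fold change was 0.02 ± 0.10 (SE, edgeR adjusted p = 0.936) in Col FRI against Col-0, -0.28 ± 0.10 (SE, edgeR adjusted p = 0.175) in 35S::FCA against Col-0 and 0.29 ± 0.10 (SE, edgeR adjusted p = 0.0813) in Col FRI against 35S::FCA.
The other 7 PSI genes had log2 fold changes between 0.02 for PSAK and 0.31 for PSAE2 in Col FRI against Col-0, with PSAE1 and PSAE2, a second ferredoxin-side pair, called higher. In 35S::FCA against Col-0 they ran from -0.42 for PSAN to -0.25 for PSAE2, with PSAL and PSAN called lower.

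Among PSII subunits, PSBR (AT1G79040, chr1:29735952-29737009), which supports binding of the oxygen-evolving proteins, was at 770.3, 812 and 831 TPM in Col FRI, 531, 612 and 584 TPM in 35S::FCA, and 749, 702 and 603 TPM in Col-0. Col FRI was above Col-0, and 1 Col-0 library lay in the 35S::FCA range. For PSBR the log2 fold change was 0.28 ± 0.08 (SE, edgeR adjusted p = 0.0498) in Col FRI against Col-0, -0.33 ± 0.08 (SE, edgeR adjusted p = 0.0776) in 35S::FCA against Col-0 and 0.60 ± 0.08 (SE, edgeR adjusted p = 0.0017) in Col FRI against 35S::FCA.
PSBX (AT2G06520, chr2:2587729-2588448), a small membrane subunit, was at 716, 794 and 799 TPM in Col FRI, 667, 617 and 642 TPM in 35S::FCA, and 738, 643 and 568 TPM in Col-0. Its Col-0 and 35S::FCA libraries overlapped, and it was not called. For PSBX the log2 fold change was 0.29 ± 0.12 (SE, edgeR adjusted p = 0.147) in Col FRI against Col-0, -0.08 ± 0.12 (SE, edgeR adjusted p = 0.782) in 35S::FCA against Col-0 and 0.37 ± 0.12 (SE, edgeR adjusted p = 0.0785) in Col FRI against 35S::FCA.
PSBW (AT2G30570, chr2:13019028-13020311), a small subunit that stabilizes PSII with its antenna, was at 427, 455 and 459 TPM in Col FRI, 335, 355 and 348 TPM in 35S::FCA, and 427, 414 and 363 TPM in Col-0. For PSBW the log2 fold change was 0.20 ± 0.09 (SE, edgeR adjusted p = 0.175) in Col FRI against Col-0, -0.29 ± 0.09 (SE, edgeR adjusted p = 0.138) in 35S::FCA against Col-0 and 0.49 ± 0.09 (SE, edgeR adjusted p = 0.0084) in Col FRI against 35S::FCA. Its Col FRI and Col-0 libraries were close, with the lowest Col FRI value almost equal to the highest Col-0 value.
PSBP1 (AT1G06680, chr1:2047634-2049439), an extrinsic protein of the oxygen-evolving complex, was at 338, 333 and 349.8 TPM in Col FRI, 190.4, 267 and 237 TPM in 35S::FCA, and 302, 299 and 244 TPM in Col-0. For PSBP1 the log2 fold change was 0.32 ± 0.07 (SE, edgeR adjusted p = 0.0169) in Col FRI against Col-0, -0.37 ± 0.07 (SE, edgeR adjusted p = 0.0346) in 35S::FCA against Col-0 and 0.69 ± 0.07 (SE, edgeR adjusted p = 3.5e-04) in Col FRI against 35S::FCA. Col FRI was above all other libraries.

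The PSBQ genes, which encode another extrinsic oxygen-evolving protein, differed from each other. PSBQ2 (AT4G05180, chr4:2671523-2673243) was at 147, 151 and 147 TPM in Col FRI, 82.5, 102 and 97.1 TPM in 35S::FCA, and 159, 164 and 136 TPM in Col-0. The Col FRI and Col-0 values overlapped, and the 35S::FCA values lay well below both. For PSBQ2 the log2 fold change was 0.00 ± 0.07 (SE, edgeR adjusted p = 0.993) in Col FRI against Col-0, -0.79 ± 0.07 (SE, edgeR adjusted p = 0.0012) in 35S::FCA against Col-0 and 0.79 ± 0.07 (SE, edgeR adjusted p = 1.4e-04) in Col FRI against 35S::FCA. PSBQ1 had a log2 fold change of -0.37 ± 0.06 (SE, edgeR adjusted p = 0.0216) in 35S::FCA against Col-0. Within each library, PSBQ2 made up 48.0, 48.1 and 47.4% in Col FRI, 43.4, 41.1 and 41.4% in 35S::FCA, and 48.4, 49.2 and 49.6% in Col-0 of the PSBQ TPM, so that its share in 35S::FCA was below that in every other library. Shares of the paralogs PSAD2, PSAE2 and PSAH1 in their families overlapped between 35S::FCA and Col-0, whereas the PSBO2 share of PSBO was 12.4, 11.8 and 12.1% in Col FRI, 11.1, 11.4 and 10.8% in 35S::FCA, and 12.5, 13.1 and 14.2% in Col-0, lower in each 35S::FCA library than in any Col-0 library.
PSBS (AT1G44575, chr1:16870221-16873427), the sensor of lumen acidity in non-photochemical quenching, was at 188, 189 and 191 TPM in Col FRI, 87.4, 126 and 111 TPM in 35S::FCA, and 165, 179 and 137 TPM in Col-0. Its 3 genotypes did not overlap, and it was called in every comparison. For PSBS the log2 fold change was 0.29 ± 0.07 (SE, edgeR adjusted p = 0.0292) in Col FRI against Col-0, -0.65 ± 0.07 (SE, edgeR adjusted p = 0.0042) in 35S::FCA against Col-0 and 0.94 ± 0.07 (SE, edgeR adjusted p = 1.1e-04) in Col FRI against 35S::FCA.
The oxygen-evolving PSBO pair moved in the same directions. In Col FRI against Col-0 the log2 fold change was 0.40 ± 0.09 (SE, edgeR adjusted p = 0.0229) for PSBO1 and 0.25 ± 0.09 (SE, edgeR adjusted p = 0.0941) for PSBO2. In 35S::FCA against Col-0 it was -0.35 ± 0.09 (SE, edgeR adjusted p = 0.0891) for PSBO1 and -0.64 ± 0.09 (SE, edgeR adjusted p = 0.0133) for PSBO2. Both were called higher in Col FRI against 35S::FCA, with log2 fold changes of 0.75 ± 0.09 (SE) and 0.90 ± 0.09 (SE). PSBY, a small subunit, was called lower in 35S::FCA against Col-0, with a log2 fold change of -0.39 ± 0.08 (SE, edgeR adjusted p = 0.0484).

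Ratios within a library are free of its scaling, and they set antenna genes against subunit genes. The summed antenna TPM divided by the summed TPM of PSI and PSII subunits was 0.707, 0.682 and 0.684 in Col FRI, 0.520, 0.595 and 0.571 in 35S::FCA, and 0.574, 0.674 and 0.542 in Col-0. All Col FRI ratios were above all others, although replicate 2 of Col-0 came close, and 35S::FCA overlapped Col-0. LHCA over PSI gave 0.305, 0.294 and 0.301 in Col FRI, 0.214, 0.262 and 0.242 in 35S::FCA, and 0.247, 0.278 and 0.223 in Col-0, and Col FRI was again the highest. LHCB over PSII gave 1.12, 1.08 and 1.07 in Col FRI, 0.844, 0.940 and 0.915 in 35S::FCA, and 0.930, 1.11 and 0.900 in Col-0, where Col FRI overlapped Col-0. PSI over PSII was 1.03, 1.03 and 1.01 in Col FRI, 1.06, 1.03 and 1.04 in 35S::FCA, and 1.09, 1.09 and 1.12 in Col-0. This ratio was higher in each Col-0 library than in any Col FRI or 35S::FCA library, and each Col FRI ratio was below each 35S::FCA ratio, with 1.032 in the highest Col FRI library and 1.035 in the lowest 35S::FCA library.

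**Figure D4:**
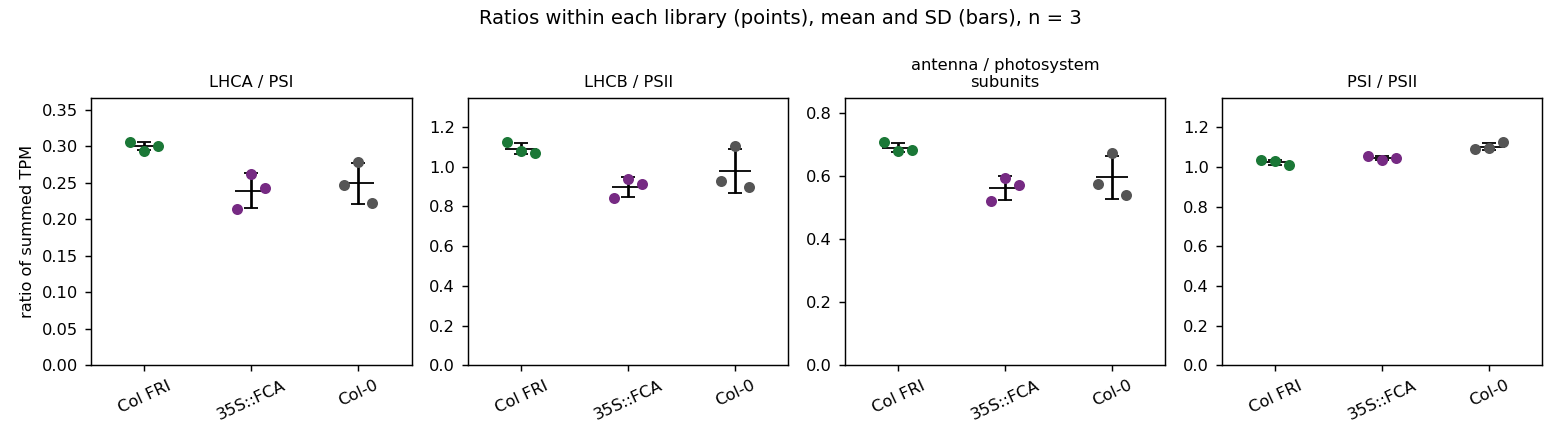
Ratios of summed TPM within each library: LHCA over PSI, LHCB over PSII, antenna over photosystem subunits, and PSI over PSII, for Col FRI, 35S::FCA and Col-0 from left to right, on axes from 0. Points are libraries and bars the mean and SD (n = 3). Col FRI libraries sit highest for LHCA over PSI and for antenna over subunits, and Col-0 libraries sit highest for PSI over PSII.

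Partners of these genes were described by list. How completely these libraries capture plastid transcripts was not tested, so plastid and nuclear levels may not be on equal terms. Among the plastid genes, psbA was at 24.7 to 52.2 TPM and psbM at 8986 to 13169 TPM over all libraries. Of 19 plastid genes for photosystem proteins, 0 were called in any comparison by edgeR, DESeq2 or limma with all libraries. Before adjustment, the p was under 0.05 for 0, 0 and 2 of them by edgeR, 0, 0 and 1 by DESeq2 and 2, 0 and 6 by limma (0.1 added), in Col FRI against Col-0, 35S::FCA against Col-0 and Col FRI against 35S::FCA. The 0 calls depended on replicate 3 of Col-0, the library that stands apart. Without it edgeR called 10 of the 19 higher in Col FRI against Col-0 (1864 of 19022 genes). It called 3 of the 19 higher in Col FRI against 35S::FCA (1905 of 19022 genes). Fitted with these libraries alone, Col FRI against 35S::FCA gave 4 calls among the 19 (2370 of 18008 genes higher and 2108 lower). Medians of the 19 plastid genes were, as log2 fold changes, 0.19 in Col FRI against Col-0, -0.17 in 35S::FCA against Col-0 and 0.32 in Col FRI against 35S::FCA. Plastid transcripts took between 13.8% and 14.9% of the TPM in Col FRI, between 10.9% and 13.1% in 35S::FCA and between 8.94% and 15.6% in Col-0. Of 11 nuclear genes for electron transport and ATP synthase, 2 were called higher in Col FRI against Col-0, 4 lower in 35S::FCA against Col-0 and 10 higher in Col FRI against 35S::FCA. FNR1, a ferredoxin-NADP reductase, was at 56.4, 56.5 and 54.1 TPM in Col FRI, 30.6, 44.7 and 38.1 TPM in 35S::FCA, and 46.6, 46.7 and 39.9 TPM in Col-0, and its log2 fold change was 0.38 ± 0.07 (SE, edgeR adjusted p = 0.0085) in Col FRI against Col-0. PETE2, a plastocyanin, had a log2 fold change of -0.45 ± 0.09 (SE, edgeR adjusted p = 0.0419) in 35S::FCA against Col-0. Of 12 genes for antenna insertion and photosystem assembly, 2, 1 and 5 were called in these comparisons, in the same directions. Of all genes tested, 6.04%, 1.03% and 7% were called in those directions. In both of these lists 0 genes were called in any comparison when the Col FRI libraries were added up into 1 sample. The assembly genes included cpSRP43, a chaperone that brings LHC proteins to the thylakoid, with a log2 fold change of 0.43 ± 0.09 (SE, edgeR adjusted p = 0.0133) in Col FRI against Col-0.

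The early light-induced proteins are relatives of the LHC family that accumulate under light stress. ELIP2 was at 212, 220.0 and 218 TPM in Col FRI, 138, 156 and 153 TPM in 35S::FCA, and 164, 159.7 and 134 TPM in Col-0. Its log2 fold change was 0.55 ± 0.07 (SE, edgeR adjusted p = 0.0023) in Col FRI against Col-0 and 0.66 ± 0.07 (SE, edgeR adjusted p = 4.9e-04) in Col FRI against 35S::FCA. ELIP1 was at 1.98, 2.22 and 2.13 TPM in Col FRI, 0.581, 0.528 and 0.839 TPM in 35S::FCA, and 0.853, 0.585 and 0.709 TPM in Col-0, with a log2 fold change of 1.60 ± 0.29 (SE, edgeR adjusted p = 0.0092) in Col FRI against Col-0. The other 4 genes of that list, which include the kinases that phosphorylate the antenna, were not called in any comparison. GLK1 and GLK2 are transcription factors that activate antenna genes in leaves. GLK2 was low, at 1.39, 2.14 and 1.66 TPM in Col FRI, 0.979, 0.890 and 1.04 TPM in 35S::FCA, and 0.836, 1.07 and 0.289 TPM in Col-0, and had a log2 fold change of 1.31 ± 0.36 (SE, edgeR adjusted p = 0.0392) in Col FRI against Col-0. GLK1 was at 6.54, 6.29 and 5.90 TPM in Col FRI, 3.51, 6.76 and 5.67 TPM in 35S::FCA, and 5.11, 5.53 and 7.21 TPM in Col-0, with a log2 fold change of 0.09 ± 0.21 (SE, edgeR adjusted p = 0.8) in Col FRI against Col-0 and -0.29 ± 0.21 (SE, edgeR adjusted p = 0.481) in 35S::FCA against Col-0.

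Markers of other tissues and of the embryo's progress were read beside these results. LEC1, an embryo regulator, was between 142 and 214 TPM in every library. Summed endosperm markers were at between 2.57 and 2.93 TPM in Col FRI, between 2.29 and 2.74 TPM in 35S::FCA and between 1.54 and 4.69 TPM in Col-0, with AGL36, IKU2 and MINI3 at or under the floor of 3 counts, and 0 of 4 tested were called. Summed seed coat markers were at between 11.4 and 12.9 TPM in Col FRI, between 13.1 and 17.8 TPM in 35S::FCA and between 12.2 and 15.0 TPM in Col-0, and 0 of 4 tested were called. Among 11 embryo genes, ABI3, a regulator of seed maturation, was higher in Col FRI than in Col-0 (log2 fold change 0.45 ± 0.06 (SE, edgeR adjusted p = 0.003)) and WUS, a stem cell regulator, was lower (-1.43 ± 0.34 (SE, edgeR adjusted p = 0.025)). Of 6 seed maturation genes tested, OLE1, OLE2 and OLE3, which encode oil body proteins, were higher and SESA1 and CRA1, which encode storage proteins, were lower in Col FRI against Col-0. OLE3 was at 534, 578 and 559.7 TPM in Col FRI, 281, 348 and 323 TPM in 35S::FCA, and 363, 354 and 331 TPM in Col-0, and each Col FRI value was above all others, while 35S::FCA overlapped Col-0. Summed maturation genes were at between 674 and 725 TPM in Col FRI, between 357 and 461 TPM in 35S::FCA and between 435 and 483 TPM in Col-0. Most of this sum was OLE3. In Col FRI against 35S::FCA, 1 of 11 embryo genes was called higher and 3 lower. There, 3 of 6 maturation genes were called higher and 0 lower (7% and 5.92% of all genes). In 35S::FCA against Col-0, 0 embryo genes were called, and 1 maturation gene was called lower and 0 higher (1.03% and 0.49% of all genes). SESA1, CRA1 and WUS rest on few reads. CRA1 had 3, 1 and 2 estimated counts in Col FRI and 16, 15 and 11 in Col-0. SESA1 had 8, 5 and 7 in Col FRI and 85, 231 and 15 in Col-0, and WUS 7, 4 and 8 against 22, 29 and 20. ABI3 and the oleosin genes thus differed in the same direction as the photosynthesis genes in Col FRI against Col-0, and the low-count genes SESA1, CRA1 and WUS in the opposite one. The part of any of them in the differences described above was not tested.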

How the data were processed

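RNA of 20 pooled embryos per library was made into Smart-seq2 libraries with a non-commercial Tn5 and sequenced as paired 75-nt reads in 2 runs. The authors quantified transcripts with kallisto, whose version is not given in the sources used here, on TAIR10 models. The deposited tables give per transcript an estimated count, not normalized, and a TPM value, which the authors' tool scales to the same total over all entries, organelle and ribosomal ones included. Both were summed per locus here, and estimated counts were rounded. Genes passing filterByExpr (18585) were tested with edgeR 4.0.16 in R 4.3.3 (TMM, quasi-likelihood test, genotype only) over all 9 libraries, which share 1 estimate of the spread, and p-values were Benjamini-Hochberg adjusted over all of them at 0.05. A stricter rule (adjusted p under 0.001, log2 fold change above 1) was also applied. The fit was checked on simulated counts. Alternatives were RLE factors, DESeq2 1.42.0, limma 3.58.1 on log2-transformed TPM (pseudocount 0.1 or 1), no filter, only the genotypes compared, a replicate block, length-scaled counts, nuclear genes only, summed copies, each library left out and, chosen after seeing the data, the Col FRI libraries summed to 1 sample. Depth sets a floor of 3 counts per library. This covers counting error only, since reads carry no molecular identifiers.

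The members, the lists and the sequences shown were chosen with earlier results of these data known. Genes with values in every library are, in each of the 4 groups, the 3 with the highest mean TPM and those with the smallest p in each comparison, beside others said to be chosen after their values were seen. From the other lists, genes that passed the test were eligible to be named, up to 4 per list by smallest p, beside genes singled out afterwards, which are GLK1, LEC1, CRA1, PETE2, cpSRP43 and FNR1. All 42 loci matched RefSeq TAIR10.1, from which sequences, coordinates and 31-base words were read, in promoter windows of 250 bases. Same-numbered libraries of different genotypes did not pair: their correlations ran from -0.11 to 0.27. The proximal and distal FLC isoforms and the authors' other data were not analysed here.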

Additional observations from a re-analysis of the deposited data

How the results depend on the processing

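No alternative turned the direction of a called member named here. Members called higher in Col FRI against Col-0 numbered 22, and 0 with the Col FRI libraries summed or under the stricter rule, 5 with limma and either pseudocount, and 8 to 25 when 1 library was left out. Members called lower in 35S::FCA against Col-0 numbered 21, and 32 with DESeq2, 1 with only these genotypes or with the Col FRI libraries summed, 2 with limma and either pseudocount, 0 under the stricter rule, and 1 to 30 when 1 library was left out, while members called higher numbered 0 to 1. Members called higher in Col FRI against 35S::FCA numbered 38, and 20 with limma and either pseudocount, 10 with the Col FRI libraries summed, 7 under the stricter rule, and 36 to 40 when 1 library was left out. The fit with the replicate number as a replicate block called 16 members higher in Col FRI against Col-0, 7 lower in 35S::FCA against Col-0 and 38 higher in Col FRI against 35S::FCA. Over all 18585 genes of that fit, 815, 74 and 1080 were called in these directions. Same-numbered libraries did not pair. RLE factors, no filter, length-scaled counts, nuclear genes only and summed copies kept each count within 1.5 times. With limma and 0.1 added, the median of all genes moved to -0.12 in Col FRI against 35S::FCA, where that of the members was 0.57. Calls over all genes changed as well. When 1 library was left out, 300 to 1864 genes were called higher in Col FRI against Col-0, against 1122 with all libraries. In 35S::FCA against Col-0, 13 to 997 were called lower, against 192. In Col FRI against 35S::FCA, 563 to 1905 were called higher, against 1301. Medians of the 4 groups kept their sign in every alternative, and the cause of the changed counts was not tested.

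With 3 libraries per genotype, planting and embryo age cannot be told apart from genotype. In the comparisons with Col FRI, neither can the cold treatment of the parent seedlings.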

Other observations

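The members ranked the libraries more alike in 35S::FCA and Col-0 than in Col FRI. In Col FRI, replicate 1 had the lowest TPM for 24 of 41 members, replicate 2 for 12 and replicate 3 for 5, and the highest for 5, 14 and 22. This order depended on the scale: by nuclear TPM replicate 1 was highest for 21 members and replicate 2 lowest for 23. In 35S::FCA, replicate 1 had the lowest TPM for 35 of 41 members and replicate 2 the highest for 34. By nuclear TPM these counts were 33 and 33. In Col-0, replicate 3 had the lowest TPM for 37 of 41 members but the highest nuclear TPM for 26, and the highest TPM was split between replicate 2 (25 members), replicate 1 (14) and replicate 3 (2). The median coefficient of variation of the members was 2.32% in Col FRI, 11.1% in 35S::FCA and 12.1% in Col-0, against 6.52%, 16.4% and 18.7% over all genes tested. These genes were not matched to the members for count. LHCA5 was split between its annotated models, with between 36.3% and 51.2% of its TPM on the first model in Col FRI, between 35.9% and 53.1% in 35S::FCA and between 44.1% and 69.4% in Col-0.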
